A study of Mus musculus with 15 samples.

Results

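The cytosines described here are those of the mitochondrial genome in a table of percent methylation from the mouse dentate gyrus, a part of the hippocampus. Every entry on the mitochondrial chromosome was taken, in both cytosine contexts and on both strands, which gave 459 of the 2918114 entries in the table. Of these, 53 were CpG positions (15 on the plus strand and 38 on the minus strand) of 455836 in all. The other 406 were non-CpG positions (181 on the plus strand and 225 on the minus strand) of 2462278 in all. No measured value was used to choose them.

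Methylation was read by reduced representation bisulfite sequencing (RRBS), which cuts DNA with a restriction enzyme and sequences short fragments after bisulfite treatment. Bisulfite turns unmethylated cytosine into uracil, so the percentage at a position is the share of reads in which the cytosine was not converted. A sample label words the conversion the other way round, as acting on methylated cytosines. The values were read as percent methylated because nuclear CpG positions averaged 45.9% to 48.4% and nuclear non-CpG positions 0.881% to 0.982% in these mice, and no header states the direction. All 15 mice were female C57BL/6JRj mice aged 7.5 months, with 5 in each of 3 groups, and no allele or transgene is named in the labels. The standard group lived in standard housing for 6 months, the enriched group lived in an enriched environment for 6 months, and the withdrawal group had 3 months of enrichment followed by 3 months of standard housing. Each library came from micro-dissected tissue, so neurons, glia and vessels were read together and the mitochondrial DNA of a cell type cannot be told apart. The comparisons ask whether housing altered DNA methylation in this tissue and whether a difference remained after enrichment ended.

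Mitochondrial DNA is a small circular genome present in many copies per cell, packed by the protein TFAM and not by histones. It encodes core subunits of the respiratory chain complexes, the ribosomal RNAs of the mitochondrial ribosome and a set of transfer RNAs. Both strands are transcribed from promoters in a control region, which also holds an origin of replication. The strands differ in base composition and are called heavy and light: the reference sequence is written as the light strand, so cytosines on its minus strand lie on the heavy strand. Whether mitochondrial DNA carries cytosine methylation at all has been debated, and most mammalian non-CpG methylation known in the brain lies in nuclear DNA of neurons.

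The 459 cytosines lay in 4 stretches of the genome, with coordinates as deposited and the build named as mm10 in the submitters' processing notes. The first stretch ran from 19 to 442 (58 cytosines), the second from 1798 to 3821 (234), the third from 5784 to 6313 (69) and the last from 15489 to 16265 (98). By RefSeq gene positions of assembly GRCm38.p6, 8 of the 37 mitochondrial genes held at least 1 of them. Both ribosomal RNA genes were covered: mt-Rnr1 (70 to 1024, the small-subunit rRNA) held 48 and mt-Rnr2 (1094 to 2675, the large-subunit rRNA) held 87. Of 7 genes for complex I, which takes electrons from NADH, only ND1 (2751 to 3707) was covered, with 113 cytosines. Of 3 genes for complex IV, the oxygen-reducing complex, only COX1 (5328 to 6872) was covered, with 69. Of 22 transfer RNA genes 4 were covered, namely TrnF (9), TrnL1 (16), TrnI (11) and TrnQ (8), which carry phenylalanine, leucine, isoleucine and glutamine. The control region after TrnP, from base 15423 on, held 98 cytosines. The gene of complex III and the 2 genes of complex V held none, so nothing is measured here about them.

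A mouse had a value at 331 to 453 of the 459 positions, the fewest in enriched mouse 2 and the most in standard mouse 5. Values in all 15 mice were present at 183 positions (25 CpG and 158 non-CpG), and at 276 at least 1 mouse lacked one. No read count comes with the percentages, so the depth behind each of them is unknown. Before the results, it has to be said that 4 mice stood apart on the minus strand of the mitochondrial genome: standard mice 4 and 5, enriched mouse 5 and withdrawal mouse 3. They come from all 3 groups, were picked out after their values were seen, and are left out as an alternative wherever a result could rest on them.

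Mitochondrial CpG positions were methylated at a small fraction of the nuclear level in every mouse. Over the 25 CpG positions with a value in all mice, the standard mice averaged 1.34%, 0.846%, 2.31%, 4.62% and 5.23% in order of mouse number. The enriched mice averaged 1.08%, 1.32%, 1.18%, 1.51% and 7.75%, and the withdrawal mice 0.417%, 0.468%, 8.63%, 3.62% and 0%. Nuclear CpG positions of the same libraries, on chromosomes 1 to 19 and X, averaged between 45.9% and 48.4%. The mitochondrial mean was lower in 15 of 15 mice, with a mean difference of -44.5 percentage points (SD 2.83, n = 15; two-sided exact sign-flip permutation p = 6.1e-05, the smallest that 15 mice can give; 0.000305 after Benjamini-Hochberg adjustment over 5 within-mouse tests). Against nuclear CpG positions with a mean under 20%, a class that includes many gene starts, the mitochondrial difference was -1.96 points and the adjusted p was 0.0505.

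Outside CpG the order was the other way round. Over 158 non-CpG positions with a value in all mice, the mitochondrial mean was 0.813%, 0.758%, 2.04%, 4.28% and 3.01% in standard mice 1 to 5. It was 0.674%, 1.19%, 1.38%, 1.82% and 5.15% in the enriched mice, and 0.693%, 0.995%, 6.39%, 3.27% and 0.905% in the withdrawal mice. The nuclear non-CpG mean lay between 0.881% and 0.982% in all of them. The mitochondrial mean was higher in 10 of 15 mice, by 1.29 points on average (SD 1.82, n = 15; exact sign-flip permutation p = 0.00903, adjusted 0.0226). Without the 4 mice that stood apart the difference was 0.387 points (exact sign-flip permutation, adjusted p = 0.181). Those mice were picked for high minus-strand non-CpG means, so leaving them out by itself lowers this difference. With medians over positions in all 15 mice it was 0.0996 points (exact sign-flip permutation, adjusted p = 0.5).

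Within the mitochondrial genome, CpG and non-CpG positions had similar levels, unlike in the nucleus. The CpG mean exceeded the non-CpG mean by 0.462 points (SD 1.05, n = 15; exact sign-flip permutation p = 0.133, adjusted 0.166), with 10 mice above 0 and 5 below. The differences of single mice ran from -0.905 to 2.59 points. By the share of positions above 0, CpG exceeded non-CpG by 6.16 points (adjusted p = 0.0283).

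Mouse means of mitochondrial methylation varied more on the minus than on the plus strand. Over each mouse's own positions, the SD of the 15 CpG means was 5.23 points on the minus and 1.29 points on the plus strand. For non-CpG it was 5.85 and 1.86 points. Averaged over each mouse's own minus-strand non-CpG positions, methylation was 0.469%, 0.419%, 0.648%, 14.0% and 7.35% in standard mice 1 to 5. It was 0.647%, 1.25%, 1.11%, 4.26% and 15.9% in enriched mice 1 to 5, and 0.355%, 0.659%, 15.3%, 2.05% and 1.13% in withdrawal mice 1 to 5. A single enriched mouse, a single withdrawal mouse and a pair of standard mice were thus above 5%, with enriched mouse 4 next, and the others were at or under 2.05%.

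Minus-strand CpG positions, which lie among these non-CpG positions, showed the same mice. Standard mice 1 to 5 averaged 0%, 0.706%, 0.898%, 11.2% and 9.20% there. The enriched mice averaged 0.275%, 0.556%, 1.85%, 3.21% and 13.3%, and the withdrawal mice 0.0760%, 0.267%, 14.4%, 2.29% and 0.921%. The high values were not set by a few positions: 56.2% of the minus-strand CpG positions of standard mouse 4 were above 0, 80.6% in standard mouse 5, 80% in enriched mouse 5 and 81.1% in withdrawal mouse 3. In the other mice this share ran from 0% to 40.5%, the highest in enriched mouse 4.

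**Figure D1:**
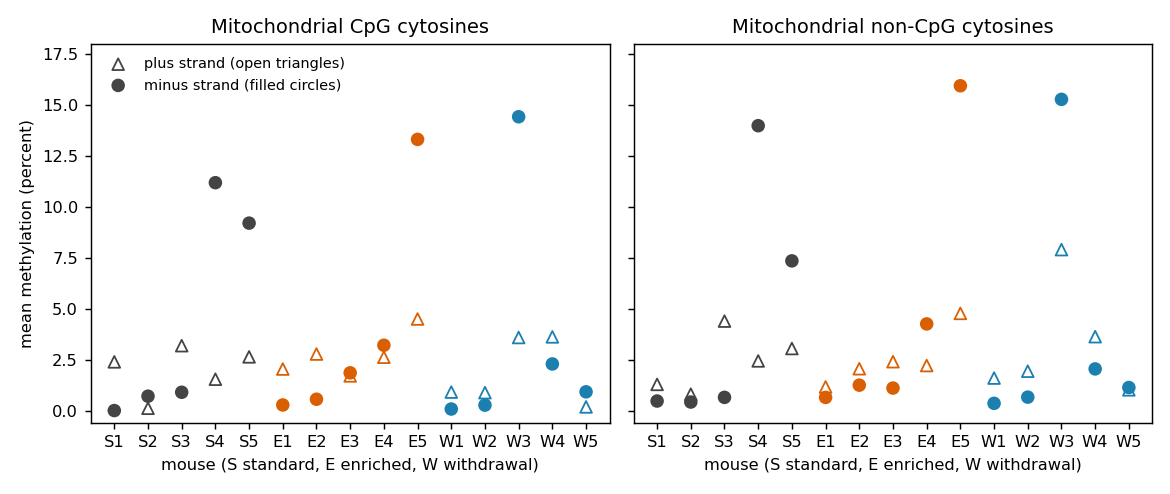
Mean methylation (percent, vertical axis) of mitochondrial CpG and non-CpG cytosines in each of 15 mice (horizontal axis), with filled circles for the minus strand and open triangles for the plus strand. Standard mice 4 and 5, enriched mouse 5 and withdrawal mouse 3 lie between 7.35% and 15.9% on the minus strand, and every other minus-strand mean is at or under 4.26%.

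The plus strand was more even. Its CpG means were 2.39%, 0.113%, 3.19%, 1.54% and 2.64% in the standard mice, 2.04%, 2.78%, 1.70%, 2.62% and 4.497% in the enriched mice, and 0.908%, 0.878%, 3.59%, 3.62% and 0.180% in the withdrawal mice. Its non-CpG means were 1.28%, 0.804%, 4.39%, 2.44% and 3.05%, then 1.16%, 2.05%, 2.40%, 2.21% and 4.77%, then 1.60%, 1.93%, 7.90%, 3.63% and 1.02%, in the same order. Withdrawal mouse 3 was the highest on the plus strand outside CpG, followed by enriched mouse 5 and standard mouse 3, whose minus-strand mean was low.

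The sign of the strand difference changed between mice, and its mean did not pass the test. Plus minus minus strand was -1.73 points for CpG (SD 4.87, n = 15; exact sign-flip permutation p = 0.191, adjusted 0.191), from -12.2 to 2.88 in single mice. For non-CpG it was -1.51 points (SD 3.43, n = 15; exact sign-flip permutation p = 0.127, adjusted 0.166), from -9.5 to 1.43. On nuclear chromosomes 1 to 19 and X the SD of the same difference over mice was 0.203 to 0.639 points for CpG. For non-CpG the SD was 0.0235 to 0.0559 points, and each of these chromosomes had many more positions. At entries listed on the Y chromosome the SD was 16.5 points for CpG (from -13.7 to 46.7 in single mice) and 0.407 points for non-CpG. The mice were female, so these entries do not read a Y chromosome of theirs and give no comparison. Where the reads behind them came from was not tested. Without the 4 mice that stood apart the mitochondrial difference was 0.893 points for CpG (exact sign-flip permutation, adjusted p = 0.133). For non-CpG it was then 0.329 points (exact sign-flip permutation, adjusted p = 0.201), the plus strand being the higher in both contexts. The 4 mice were picked for high minus-strand non-CpG means, so leaving them out by itself moves the difference towards the plus strand. Its sign without them is therefore not a result about the strands.

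The same 4 libraries were not unusual in their nuclear methylation means. Their nuclear non-CpG means were 0.906% to 0.965%, inside the range of 0.881% to 0.982% over the other 11 mice. Their nuclear CpG means were 46.7% to 47.6%, inside 45.9% to 48.4%. They had values at 391 to 453 mitochondrial positions, where the other mice had 331 to 427. Of the nuclear positions they had values at 77.7% to 87.0%, all below the median of 88.9% over all mice. The other 11 ran from 69.2% to 97.4%, and standard mouse 1 and enriched mice 1 and 2 were also below that median. The table holds neither reads nor depth, and the cause of their minus-strand levels was not tested.

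**Figure D2:**
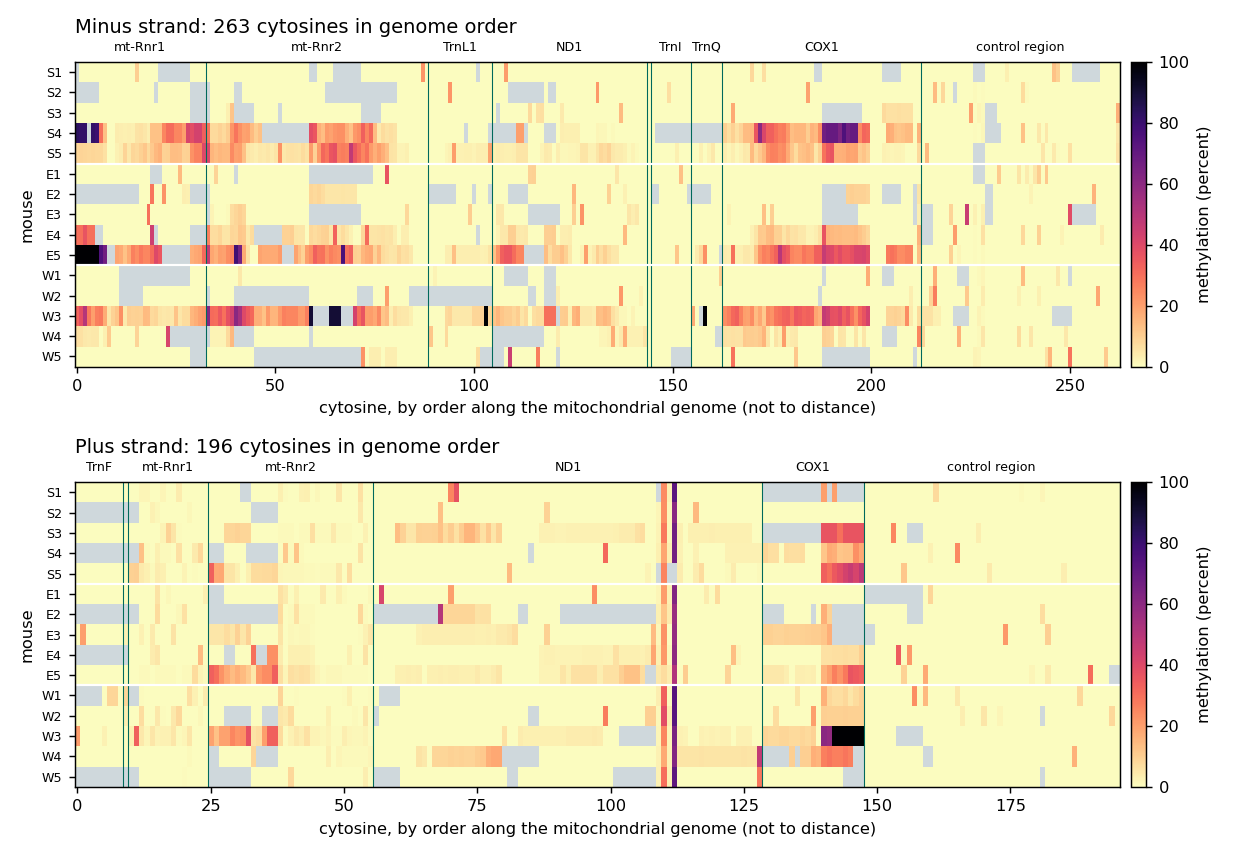
Methylation (percent, colour from 0 to 100, grey where a mouse has no value) of every mitochondrial cytosine, ordered along the genome on the horizontal axis but not to distance, in 15 mice on the vertical axis, with the minus strand above and the plus strand below. On the minus strand, standard mice 4 and 5, enriched mouse 5 and withdrawal mouse 3 are raised in mt-Rnr1, mt-Rnr2 and COX1 and pale in the control region.

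The ribosomal RNA genes, with COX1, carried the high minus-strand levels, and the single highest gene mean of a mouse on that strand was in mt-Rnr1. The gene means here were taken over the values each mouse had. In mt-Rnr1, with 33 minus-strand cytosines, the mean was 0.408%, 0%, 0%, 27.5% and 10.995% in standard mice 1 to 5. It was 0.476%, 4.40%, 0.901%, 7.72% and 47.0% in the enriched mice, and 0%, 0%, 15.1%, 3.91% and 0% in the withdrawal mice. In enriched mouse 5, 6 neighbouring cytosines from 171 to 178 were all at 100%, and in standard mouse 4, 3 cytosines between 172 and 177 were all at 81.8%. Cytosines this close lie on the same fragments and are not independent readings. None of the 33 cytosines had a value in all 15 mice. From 171 to 308, enriched mouse 5 had values at 20 of 29 cytosines and enriched mouse 2 at 13. The means of mt-Rnr1 thus rest on unlike sets of positions, and so does their order between mice.

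In mt-Rnr2 the 56 minus-strand cytosines averaged 0.465%, 0%, 0.344%, 14.6% and 14.7% in the standard mice. They averaged 1.15%, 1.29%, 1.07%, 6.78% and 18.9% in the enriched mice, and 0.0812%, 0.741%, 28.2%, 0.625% and 1.46% in the withdrawal mice. Only 9 of the 56 had a value in all 15 mice, so these means too rest on unlike sets of positions. The level differed between pieces of the gene. In the piece from 2084 to 2156 the means of standard mice 4 and 5, enriched mouse 5 and withdrawal mouse 3 were 22.1%, 29.1%, 28.5% and 72.2%, the last from 6 of 13 cytosines. In the piece from 2553 to 2904, which runs on through TrnL1 into ND1, they were 4.65%, 5.74%, 9.58% and 9.92%.

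On the plus strand of mt-Rnr2 the level also depended on the piece. Between 2259 and 2309 (8 cytosines) standard mouse 5 had a mean of 10.7%, enriched mouse 5 of 20% and withdrawal mouse 3 of 22.2%, and the other mice with values lay between 0% and 6.14%. Between 2520 and 2593, with 18 cytosines and a value at each in every mouse, all 15 means lay between 0.256% and 2.53%. Standard mouse 4 had 0% in the first of these pieces, with values at 4 of its 8 cytosines.

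ND1 and the transfer RNA genes were lower. The 40 minus-strand cytosines of ND1 averaged 0.515%, 0.729%, 0.969%, 2.01% and 3.02% in the standard mice. The averages were 0.589%, 0.780%, 1.69%, 2.48% and 10.2% in the enriched mice, and 0%, 0.780%, 8.85%, 2.43% and 2.01% in the withdrawal mice. Here only enriched mouse 5 and withdrawal mouse 3 were set off from the rest, and standard mice 4 and 5 lay close to the others. TrnL1 reached 10.7% in withdrawal mouse 3, 4.15% in standard mouse 5 and 3.12% in enriched mouse 5, and was 0% in standard mouse 4. TrnQ reached 16.8% in withdrawal mouse 3 and 4.92% in enriched mouse 5, and was at or under 1.25% in the other mice with values. In withdrawal mouse 3 the TrnQ mean came from 100% at 3784 and 17.6% at 3775, its other values there being 0%. The TrnL1 mean of that mouse included 100% at 2729, with its other values there at or under 9.09%. TrnI stayed at or under 1.19% in every mouse, and TrnF, read on the plus strand, stayed at or under 4.17% in the mice with values.

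COX1 was high on both strands, in sets of mice that overlapped in part. Its 50 minus-strand cytosines averaged 0.328%, 0.389%, 1.68%, 26.7% and 11.1% in the standard mice. They averaged 0%, 1.58%, 0.720%, 6.43% and 24.4% in the enriched mice, and 0.375%, 0.0638%, 23.4%, 4.70% and 1.10% in the withdrawal mice. Its 19 plus-strand cytosines, all non-CpG, averaged 20%, 0%, 35.6%, 8.99% and 16.6% in the standard mice. On that strand the enriched mice had 0%, 3.22%, 10.2%, 2.81% and 13.2%, and the withdrawal mice 3.73%, 5.46%, 42.1%, 20.5% and 0%. Withdrawal mouse 3, enriched mouse 5 and standard mouse 5 were above 10% on both strands. Standard mouse 3, which had a minus-strand mean of 1.68%, was the second highest on the plus strand, from values at 8 of the 19 cytosines. These lay from 6045 to 6071, where standard mouse 5 had 29.8% to 48.4%. From 6008 to 6038 standard mouse 5 had 0% and standard mouse 3 had no value. Standard mouse 1 had values at only 2 of the 19 cytosines. The plus-strand means of COX1 thus rest on unlike sets of positions, and so does their order between mice.

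The 4 plus-strand positions of COX1 with the highest means, 6063, 6068, 6069 and 6071, lay next to each other in the table. At 6071 the values were 0% in standard mouse 2, 36.4% in standard mouse 3, 18.2% in standard mouse 4 and 48.4% in standard mouse 5. They were 0%, 10% and 33.3% in enriched mice 1, 4 and 5, and 9.09%, 9.52% and 100% in withdrawal mice 1, 2 and 3. All 4 positions were at 36.4% in standard mouse 3 and at 100% in withdrawal mouse 3 and, lying on the same fragments, are not independent readings.

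The control region, where promoters and a replication origin lie, was low in all mice. Its 50 minus-strand cytosines averaged 0.637%, 0.647%, 0.830%, 0.618% and 0.763% in the standard mice. The averages were 1.00%, 0.374%, 2.53%, 1.06% and 0.256% in the enriched mice, and 0.824%, 1.495%, 0.621%, 0.947% and 1.31% in the withdrawal mice. Enriched mouse 5, the highest mouse in mt-Rnr1, was the lowest here. Its 48 plus-strand cytosines averaged 0% to 1.37% over the 15 mice.

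Counting positions gave the same split between genes and control region. Of 165 gene-region minus-strand non-CpG positions that varied, the highest value was in withdrawal mouse 3 at 55, in enriched mouse 5 at 50, in standard mouse 4 at 23 and in standard mouse 5 at 9. Withdrawal mouse 4, with 8, came next. Of 31 varying control-region positions of the same context and strand, these 4 mice had the highest value at 1, 1, 0 and 1. Of 30 varying gene-region minus-strand CpG positions these 4 mice had it at 11, 9, 3 and 2. Enriched mouse 3 also had it at 3, as many as standard mouse 4 and more than standard mouse 5. The 4 mice had been singled out on the non-CpG mean of this strand, control region included, so both non-CpG counts use the values behind that choice. The CpG positions lie among these non-CpG positions, for example 3 CpG and 26 non-CpG cytosines from 171 to 308. The CpG count is therefore not independent of that choice either.

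**Figure D3:**
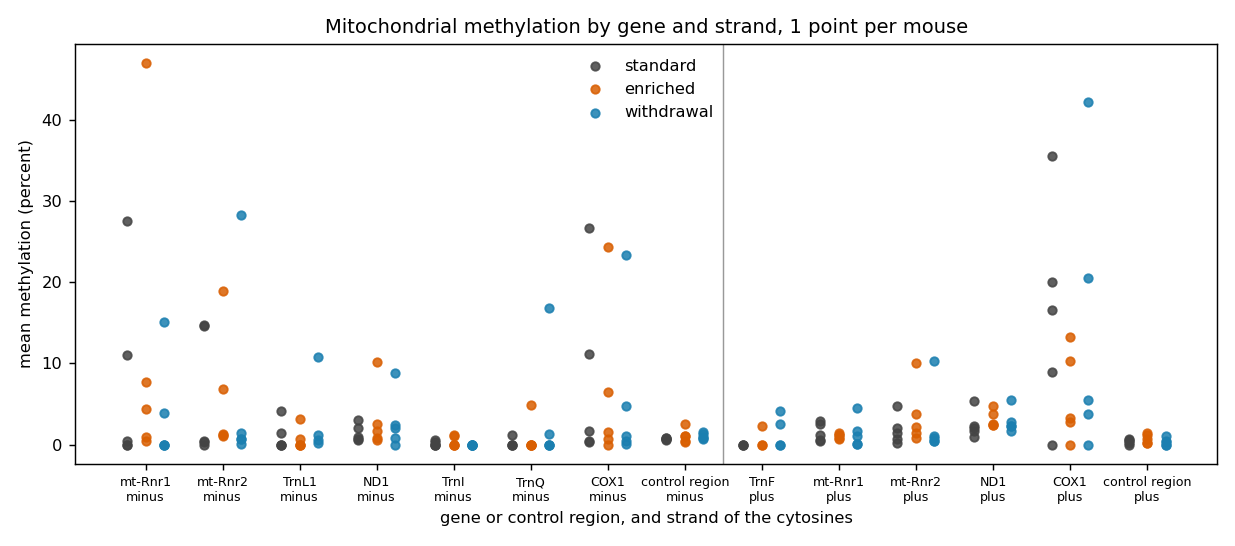
Mean methylation (percent, vertical axis) of the cytosines of each mitochondrial gene and of the control region, minus strand to the left of the line and plus strand to the right, with 1 point per mouse coloured by group. Minus-strand points reach 47.0% in mt-Rnr1 and 2.53% in the control region, and in every gene the 3 groups overlap.

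At 3 places both cytosines of a CpG pair were in the table, which allows the strands to be compared at the same base pair. In mt-Rnr2 the plus cytosine at 2552 was between 0% and 1.96% in all 15 mice. Its minus-strand partner at 2553 was 33.3% in standard mouse 4, 25.0% in standard mouse 5, 8.0% in enriched mouse 4, 14.9% in enriched mouse 5, 36.4% in withdrawal mouse 3 and 22.6% in withdrawal mouse 5. It was 0% in 5 mice and had no value in 4. The strands of 1 CpG thus had unlike values in the same animal.

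The pair at 2567 and 2568, also in mt-Rnr2, behaved alike. The plus cytosine was between 0% and 3.29% in all 15 mice. The minus cytosine was 31.2% in standard mouse 4, 20.8% in standard mouse 5, 5.26% in enriched mouse 4, 18.1% in enriched mouse 5, 20.6% in withdrawal mouse 3 and 3.33% in withdrawal mouse 5. It was 0% in 5 mice and had no value in 4. The pair at 3455 and 3456 in ND1 was low on both strands. Its plus cytosine was at most 5.26%, and its minus cytosine was 10.3% in enriched mouse 5 and at most 3.7% in the 11 other mice with a value. It had no value in enriched mouse 3 or withdrawal mice 3 and 5.

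**Figure D4:**
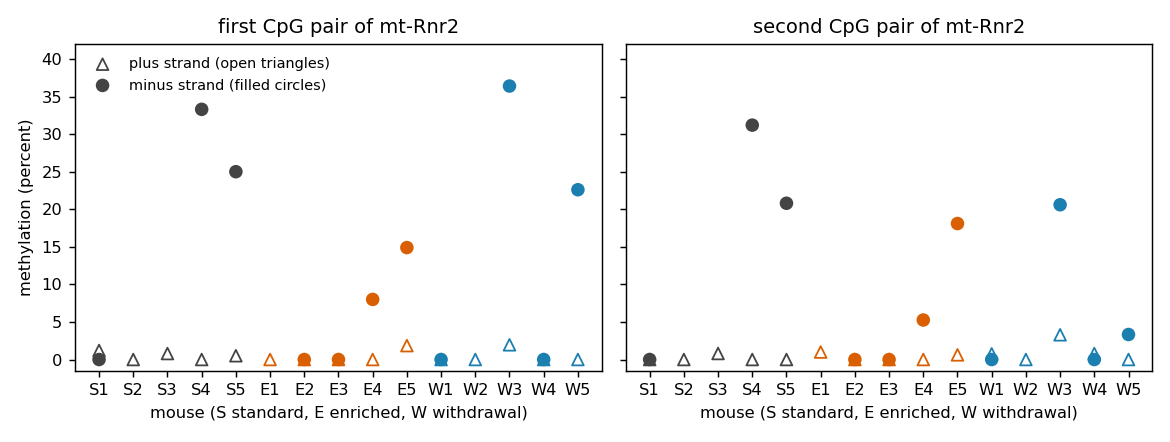
Methylation (percent, vertical axis) of the plus-strand (open triangles) and minus-strand (filled circles) cytosine of both mt-Rnr2 CpG pairs in each mouse (horizontal axis). The ND1 pair is not shown. In the mt-Rnr2 pairs the minus cytosine reaches 36.4% and 31.2% where the plus cytosine stays at or under 3.29%.

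The 5 CpG positions of highest mean were all on the minus strand. The highest was 5994 in COX1, with a mean of 23.5% over 10 mice and the widest range, from 0% to 66.7%. It read 66.7% in standard mouse 4, 29.2% in standard mouse 5, 36.4% in enriched mouse 4, 46.2% in enriched mouse 5, 46.7% in withdrawal mouse 3 and 10% in withdrawal mouse 4, and 0% in standard mice 1 and 2, enriched mouse 1 and withdrawal mouse 2. Next came 442 in mt-Rnr1 (13.9%) and 3 positions of mt-Rnr2, namely 2553 (12.7%), 1872 (10.4%) and 2156 (10.4%). The widest range of any non-CpG position was at 171 of mt-Rnr1 on the minus strand, at 0% in 6 of 12 mice, 83.3% in standard mouse 4 and 100% in enriched mouse 5.

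A single non-CpG cytosine of ND1 was different in kind, because it was high in every mouse. Position 3406, on the plus strand, had the highest mean of all mitochondrial cytosines, 64.2% over 14 mice. The standard mice had 72.2%, 60.6%, 66.7% and 66.0%, with no value in mouse 5. The enriched mice had 62.3%, 56.9%, 58.2%, 59.8% and 51.3%, and the withdrawal mice 73.4%, 72.8%, 64.6%, 62.4% and 71.7%. The spread over the mice was 22.1 points, small beside the level.

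The 2 non-CpG cytosines just before it on the same strand were unlike each other. Position 3404 was also above 0 in all 15 mice, at 18.6% to 28.0% in the standard, 6.67% to 22.4% in the enriched and 17.7% to 38.5% in the withdrawal mice. Position 3405, between the high ones, was between 0% and 4.13% in the 14 mice with a value. The nearest CpG cytosines of the strand were low too, at 1.47% to 4.62% at 3401 and 0% to 5.26% at 3410. These neighbours, all plus-strand entries within 5 bases, were looked at after their values were seen.

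At 3406 the group means were 66.4% ± 4.72 (SD, n = 4) in standard, 57.7% ± 4.09 (SD, n = 5) in enriched and 69.0% in withdrawal mice. The lowest withdrawal mouse, at 62.4%, was just above the highest enriched mouse, at 62.3%, and the standard mice overlapped with both. The position lacks a value in 1 mouse and entered only the added fit with values in 3 or more mice per group, where the missing value was left out. There withdrawal minus enriched was 11.3 points (log2 ratio difference 0.64, SE 0.611), with a Benjamini-Hochberg adjusted p of 0.652 by limma. The SE of limma draws in part on the spread at other non-CpG positions of similar level. It is not the spread of these mice alone. No mitochondrial position was called in that fit in any comparison. Of all non-CpG positions in it, 0.00932% were called between enriched and standard mice. Between withdrawal and standard mice the share was 0.00788%, and between withdrawal and enriched mice 0.00633%. Of all CpG positions 0% were called. At 3404 the same difference was 12.4 points, from 16.5% ± 6.92 (SD, n = 5) to 28.9% ± 7.94 (SD, n = 5), with an adjusted p of 0.769 by limma. Neither position passed the test, which sets the gap against that shared spread and not against the group SDs given here.

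**Figure D5:**
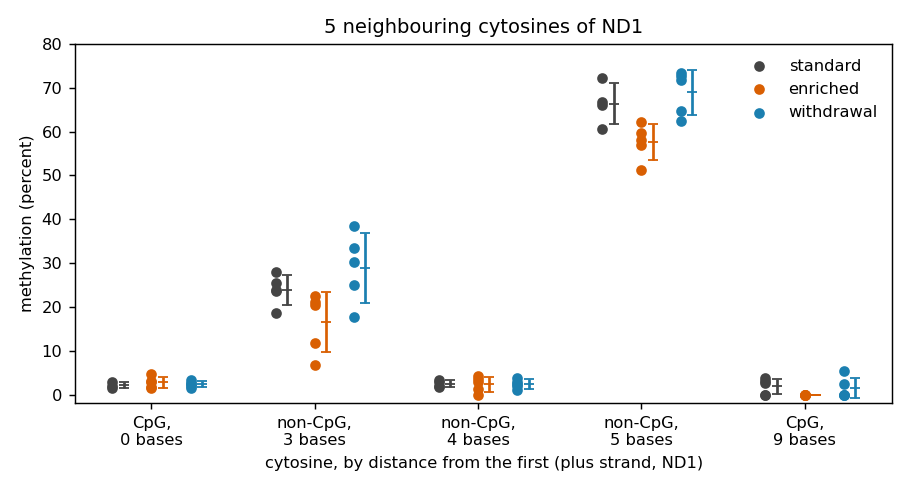
Methylation (percent, vertical axis) of 5 neighbouring plus-strand cytosines of ND1 at their distance in bases from the first (horizontal axis), with 1 point per mouse and the mean ± SD of each group beside the points. The non-CpG cytosine 5 bases on lies between 51.3% and 73.4%, and the one just before it stays at or under 4.13%.

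No difference in mean mitochondrial methylation between the housing groups passed the test. The CpG mean was 2.87% ± 1.96 (SD, n = 5) in standard, 2.57% ± 2.90 (SD, n = 5) in enriched and 2.63% ± 3.65 (SD, n = 5) in withdrawal mice. The differences were -0.303 points for enriched minus standard (two-sided exact permutation p = 0.817), -0.243 for withdrawal minus standard (exact p = 0.929) and 0.0604 for withdrawal minus enriched (exact p = 0.96). Each was adjusted over 22 chromosomes and 3 comparisons, to 0.99 in all cases. The 22 include the mitochondrial chromosome and the entries listed on the Y chromosome, although the mice were female. With 5 mice against 5 the smallest p the test can give is 0.00794. The share of chromosomes called was 0% in each of these comparisons.

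For non-CpG positions the means were 2.18% ± 1.502 (SD, n = 5) in standard, 2.04% ± 1.79 (SD, n = 5) in enriched and 2.45% ± 2.44 (SD, n = 5) in withdrawal mice. The differences were -0.138 (exact permutation p = 0.905), 0.27 (exact p = 0.825) and 0.408 points (exact p = 0.746) in the same order, with adjusted p of 1. Each of these 6 differences changed sign when some single mouse was left out. For withdrawal minus enriched outside CpG that mouse was withdrawal mouse 3, without which the difference was -0.576 points, and for withdrawal minus standard it was -0.715 points without it. Without the 4 mice, withdrawal minus enriched was -0.145 points for CpG and enriched minus standard was 0.0623 points for non-CpG, and none was called. The share of mitochondrial positions with a value was 89.8% ± 5.35, 88.2% ± 9.30 and 87.0% ± 5.42 (SD, n = 5 each) in standard, enriched and withdrawal mice, with no comparison called.

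Position by position, 17 mitochondrial CpG positions had a value in all mice and a range of at least 5 points, and entered a limma fit over 100618 CpG positions of all chromosomes. None was called at an adjusted p under 0.05 in any of the 3 comparisons, and percent called over all CpG positions tested was 0% in each. At an unadjusted p under 0.05, 1 of the 17 differed between enriched and standard mice, where 5.15% of all CpG positions did. None did in withdrawal against standard (4.42% of all) or withdrawal against enriched mice (4.3% of all). The median log2 ratio difference of the 17 was -0.0133, -0.1051 and -0.0167 in these comparisons, beside 0, 0.0224 and 0.0037 over all positions.

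The CpG position with the smallest p was 2520 of mt-Rnr2 on the plus strand. It read 3.03%, 0%, 0.82%, 0% and 1.59% in standard mice and 5.88%, 7.14%, 5.45%, 3.55% and 6.43% in enriched mice. These groups did not overlap, and the withdrawal mice, with 8.89%, 5.04%, 7.14%, 0% and 0%, spanned both. Enriched minus standard was 4.6 points (log2 ratio difference 0.89, SE 0.379), and over all 100618 positions the adjusted p was 0.914 by limma. Of 40 mitochondrial CpG positions with a range of at least 5 points, complete or not, it was the only 1 at which enriched and standard mice did not overlap, where 1.22% of all such CpG positions did not. Withdrawal mice overlapped with standard and with enriched mice at all 40, beside 1.11% without overlap among all such positions in each comparison. In withdrawal against enriched mice the position of smallest p was 3140 of ND1 on the plus strand (adjusted p = 0.977 by limma), at 9.09% in withdrawal mouse 4 and 0% in the other withdrawal mice.

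Of the non-CpG positions, 104 entered the fit over 284902 positions, and none was called. Over all non-CpG positions tested, 0.00421% were called in enriched against standard mice, 0.00421% in withdrawal against standard mice and 0% in withdrawal against enriched mice. At an unadjusted p under 0.05 the mitochondrial counts were 1, 2 and 2 of 104, beside 2.16%, 1.91% and 1.86% of all positions. The smallest adjusted p values of mitochondrial positions were 0.632, 0.602 and 0.607.

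Each of these smallest values came from a few mice. At 3476 in ND1, on the plus strand, withdrawal mouse 4 had 47.1% and withdrawal mouse 5 had 28.1%, and the 3 other withdrawal mice and all enriched mice had 0%. The standard mice had 0%, 0%, 0%, 2.7% and 1.16%. Withdrawal minus enriched was 15 points (log2 ratio difference 1.48, SE 0.563, limma adjusted p = 0.607), and withdrawal minus standard was 14.3 points (1.29, SE 0.563, limma adjusted p = 0.602). At 16062 in the control region, on the minus strand, standard mice 3, 4 and 5 had 16.7%, 5.0% and 6.1% and all 12 other mice had 0%. Enriched minus standard was -5.55 points there (log2 ratio difference -0.93, SE 0.444, limma adjusted p = 0.632).

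Groups that did not overlap were found at 8 of 297 mitochondrial non-CpG positions with a range of at least 5 points, all in withdrawal against enriched mice, where 0.0745% of all such positions did not overlap. In enriched against standard mice 0 of 297 did so, beside 0.0698% of all, and in withdrawal against standard mice 0, beside 0.0696%. Position 3406 of ND1 was 1 of them. The other 7, at 2092, 2110, 2112, 2118, 2134, 2135 and 2138, all lay in mt-Rnr2 on the minus strand and were lower in withdrawal mice. There only withdrawal mice 1, 2 and 4 had a value, 0% in each, and only enriched mice 2, 4 and 5 had one. Withdrawal mouse 3, which had the highest mean in this piece of the gene, had no value at these 7 positions.

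Averaging neighbouring positions did not change the picture. Of 15685 windows of 1 kb with at least 3 complete CpG positions, 3 were mitochondrial, and of 45456 such non-CpG windows 8 were. None was called, and 0% of all windows were called in each comparison. No mitochondrial window reached an unadjusted p under 0.05, where 5.71%, 4.81% and 4.39% of all CpG windows did in enriched against standard, withdrawal against standard and withdrawal against enriched mice. For non-CpG windows these shares were 5.19%, 4.5% and 4.67%. The smallest p of a mitochondrial window was in the CpG window from 2001 to 3000, at 2.12% ± 1.22 in enriched and 0.671% ± 0.575 in standard mice (SD, n = 5 each; limma adjusted p = 0.867). In the window from 16001 to 17000, inside the control region, the 36 non-CpG positions averaged 0.394% ± 0.309, 0.396% ± 0.501 and 0.274% ± 0.168 in standard, enriched and withdrawal mice (SD, n = 5 each).

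Mitochondrial DNA is copied, transcribed and packed by nuclear-encoded proteins, and 24 of their genes were listed for this comparison. Only 6 had at least 3 complete CpG positions within 1 kb of a gene end: Polrmt, the mitochondrial RNA polymerase, Tfb2m, which starts transcription with it, Twnk, the replicative helicase, Ssbp1, the single-strand binding protein, Mterf3, a repressor of mitochondrial transcription, and Dna2, a nuclease and helicase. Their median methylation was 1.63%, beside 2.06% over all 4205 gene ends tested, with Dna2 the highest at 17.1%. None was called in any comparison, and 0% of all gene ends were called in each. Mterf3 averaged 0.572% ± 0.865 in enriched and 2.78% ± 1.68 in withdrawal mice (SD, n = 5 each; limma adjusted p = 0.895). Twnk averaged 0.681% ± 1.52 in standard and 3.12% ± 2.25 in withdrawal mice (SD, n = 5 each; limma adjusted p = 0.936). At an unadjusted p under 0.05, Mterf3 in withdrawal against enriched mice was thus the only 1 of the 6 in any comparison, where 5.14% of all gene ends passed. In enriched against standard mice 5.37% and in withdrawal against standard mice 4.85% of all gene ends did.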

How the data were processed

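DNA from micro-dissected dentate gyrus of 15 mice was made into RRBS libraries with a commercial kit, per the labels' protocols. The deposited values are percent methylation of each cytosine, listed by strand in 1 column per mouse and without coverage, so no counting interval or coverage minimum could be used. The submitters' processing notes name mm10, Trim Galore 0.4.0, cutadapt 1.8.1, Bismark 0.16.1 and methylKit 1.5.2. Their roles, any coverage filter and any test of conversion are not given in the sources used here. The table runs through the chromosomes and then restarts: entries before the restart were read as CpG and those after it as non-CpG positions. Mitochondrial genes came from RefSeq GRCm38.p6. Sequence was not used here.

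Groups followed the housing labels, and mouse numbers came from the sample titles. Nothing says that the mice were independent beyond their separate numbers, so p-values measure the spread between these samples. In the limma fits the spread of a feature is estimated in part from the other features. The members, gene lists and tests were chosen with earlier results of these data known. Means per mouse were tested between groups by exact permutation, two-sided, over 252 arrangements of 5 against 5 mice, or by exact sign flips (32768) within mice. Positions with a value in all 15 mice and a range of at least 5 points were fitted, and so were the means of 1 kb windows and gene ends with at least 3 positions complete in all mice, whatever their range, over all chromosomes by limma 3.58.1 (R 4.3.3, trend) on log2((percent + 5)/(100 - percent + 5)). The offset of 5 understates changes near 0% and 100%. Benjamini-Hochberg adjustment covered every feature of a comparison, with a threshold of 0.05. Differences called log2 ratio differences are on the log2 scale given above. The fit was tried on simulated data modelled on CpG positions of all chromosomes, with large shifts. That trial does not show what the fit can find at mitochondrial positions, most of which lie near 0%.

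Genes with at least 5 cytosines were described. Single positions were named as the 5 of highest mean and the 1 of widest range in each context, and the 1 of smallest p in each comparison. Alternatives left out each mouse, changed the offset, filter and summary, and used the replicate number as a block. Same-numbered mice had correlations from -0.513 to 0.587, with 9 of 15 pairs over 0.1, so the numbers were taken as names.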

Additional observations from a re-analysis of the deposited data

Results flagged for a closer look

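Within groups of 5 mice, a value was singled out when its gap to the nearest other mouse took up more than 0.71 of the group's whole range. This was looked at in 60 sets of up to 5 values and met in 6. A rate of about 1 in 20 holds for sets of 5 independent, normally distributed values. These sets shared positions and included the means by which the mice had been singled out, so the count cannot be set against that rate. The minus-strand CpG mean of enriched mouse 5 was 13.3%, and the other enriched mice lay between 0.275% and 3.21%. That of withdrawal mouse 3 was 14.4%, with the other withdrawal mice between 0.076% and 2.29%. The minus-strand non-CpG mean was 15.9% in enriched mouse 5 (0.647% to 4.26% in its group) and 15.3% in withdrawal mouse 3 (0.355% to 2.05%). At minus-strand position 171 of mt-Rnr1, withdrawal mouse 3 had 32.1% and the other withdrawal mice 0% to 6.25%. Enriched mouse 2 had a value at 72.1% of the mitochondrial positions, against 88.9% to 95.2% in the other enriched mice. Standard mice 4 and 5 were both high on the minus strand, and a gap of this kind cannot be seen where a group has a pair of high mice.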

How the results depend on the processing

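No mitochondrial position, window or listed gene end was called in any of 318 limma fits, and the drop in mitochondrial against nuclear CpG methylation kept its direction under each alternative. The group differences of mitochondrial means had no stable sign, and none was called. Enriched minus standard was 0.189 points (medians over positions) and 0.223 (plus strand alone) for CpG, and 0.0623 (without the 4 mice that stood apart), 0.102 (positions read in 3 or more mice per group) and 0.127 (medians) for non-CpG. Withdrawal minus standard was 0.387 for CpG by medians and -2.28 for non-CpG by the share of positions above 0. Withdrawal minus enriched was -0.145 (without the 4 mice), -0.387 (3 or more mice per group), -4.0 (share above 0) and -0.475 (plus strand) for CpG, and -0.0673 (3 or more mice) and -1.52 (share above 0) for non-CpG. Leaving out 1 mouse at a time, CpG differences ran from -1.6 to 0.286 (enriched minus standard), -1.74 to 0.414 (withdrawal minus standard) and -1.44 to 1.36 (withdrawal minus enriched), and non-CpG differences from -0.916 to 0.387, -0.715 to 0.795 and -0.576 to 1.19. The sign changed without any of standard mice 4 and 5 and enriched mice 1, 2 and 3 for enriched minus standard in both contexts. For withdrawal minus standard it changed without standard mouse 4 or 5 or withdrawal mouse 1, 2 or 5 (CpG), and without standard mouse 1 or 2 or withdrawal mouse 3 (non-CpG). For withdrawal minus enriched it changed without enriched mouse 1, 2, 3 or 4 or withdrawal mouse 3 or 4 (CpG), and without withdrawal mouse 3 (non-CpG). The difference in the share of positions with a value ran from -3.27 to 2.51 for enriched minus standard (above 0 without standard mouse 5 or enriched mouse 2) and from -5.29 to 0.708 for withdrawal minus enriched (above 0 without enriched mouse 5 or withdrawal mouse 5).

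Within mice, mitochondrial minus nuclear CpG was -1.96 points against nuclear positions with a mean under 20% (adjusted p = 0.0505), and for non-CpG it was 0.387 without the 4 mice and 0.0996 by medians, neither called. CpG minus non-CpG was -0.0411 without the 4 mice, -0.167 over positions read in 3 or more mice per group, and 6.16 by the share above 0, which was called. Plus minus minus strand was 0.893 for CpG and 0.329 for non-CpG without the 4 mice, and 10.6 for CpG by the share above 0. The 4 mice were picked for high minus-strand non-CpG means, so the values without them are shifted by that choice. The causes were not tested. With the replicate number as a block the mean differences were as before, for example -0.303 for CpG in enriched minus standard (exact permutation p = 0.688, adjusted 0.926), and no call changed. The number of reads behind each percentage is not known, so the counting error of single high values is not known.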
